A study of Mus musculus with 2 samples.

Results

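The genes described here are 10 homeobox genes of the Dlx, Msx and Prrx families (Dlx1 to Dlx6, Msx1, Msx2, Prrx1 and Prrx2), picked by name from the 55401 genes in both expression tables. The series measured polyA-selected RNA of mouse pituitaries at embryonic day E12.5, with 1 library from wild-type embryos and 1 from embryos without Dyrk2 (labelled Dyrk2-KO), a protein kinase gene. The series title links the experiment to primary cilia, the determination of cell types and the growth of vessels. The sources used here do not give how the Dyrk2 allele was made, the strain, or how many embryos of which sex entered a library. With 1 library per genotype, differences lack any check by replicates and are reported without p-values. Intervals are 95% intervals of counting error and hold no information on the spread between embryos or dissections.

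Homeobox genes encode transcription factors that bind DNA through a shared domain, the homeodomain. The Dlx genes lie in the genome as linked pairs that point towards each other, and their products act in the pharyngeal arches, in surface ectoderm and in the inhibitory neurons of the ventral forebrain. Msx products are mostly repressors that are switched on by bone morphogenetic proteins (BMPs) in epithelium and mesenchyme of the head and limb. Prrx products are factors of mesenchyme in the head and limb. Much of the mesenchyme of the head derives from cranial neural crest. The anterior pituitary forms from Rathke's pouch, an infolding of the oral ectoderm that grows within such mesenchyme and below the forebrain.

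Upstream sequence can be shown for 3 of the genes: Msx1, the most abundant, Prrx1, with the largest relative difference among those above 1 FPKM, and Dlx2, a member of the linked pair that was higher in the knockout library. The RefSeq promoter table (GRCm38.p6) holds a window of 300 bases, 250 before and 50 after the start, for Dlx1, Dlx2, Msx1, Msx2, Prrx1 and Prrx2, and the 3 stretches are the parts of those windows that lie outside the annotated gene. All 3 genes lie on the minus strand, and each stretch reads 5′ to 3′ along the gene. They span chr5:37824584-37824835 for Msx1, chr1:163313711-163313900 for Prrx1 and chr2:71546755-71547004 for Dlx2. Capitals mark the core of homeodomain binding sites, TAAT or its reverse complement ATTA, with overlapping matches each counted.
Msx1: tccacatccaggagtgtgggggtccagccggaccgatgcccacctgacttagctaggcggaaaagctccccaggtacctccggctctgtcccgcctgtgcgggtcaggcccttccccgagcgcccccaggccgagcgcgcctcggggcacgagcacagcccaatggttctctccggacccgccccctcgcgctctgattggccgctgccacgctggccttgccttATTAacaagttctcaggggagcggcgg
Prrx1: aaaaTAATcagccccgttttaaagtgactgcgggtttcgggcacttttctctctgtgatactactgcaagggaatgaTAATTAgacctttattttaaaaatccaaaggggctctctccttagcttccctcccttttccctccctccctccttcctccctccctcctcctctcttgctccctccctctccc
Dlx2: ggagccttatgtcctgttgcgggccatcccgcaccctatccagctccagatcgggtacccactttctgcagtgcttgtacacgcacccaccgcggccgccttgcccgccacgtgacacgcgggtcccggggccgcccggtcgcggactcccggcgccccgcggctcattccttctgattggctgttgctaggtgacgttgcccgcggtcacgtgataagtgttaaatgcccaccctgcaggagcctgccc

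In the whole 300-base windows the core was present 1 time for Msx1, 4 times for Prrx1, 5 times for Msx2 and 0 times for Dlx1, Dlx2 and Prrx2. Of all 32851 windows in that table, 58.0% held it at least once on either strand. The longer form TAATTG or its reverse complement CAATTA was in 0 of the 6 windows and in 8.0% of all windows. Prrx1 also stood apart from the other 5 in base composition, with 6 CG dinucleotides against 22 to 29, where the median of all windows was 7. A match is a description of these letters and was not tied to any binding measurement.

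Both libraries were about equally deep, with totals of about 20046203 (wild-type) and 20115031 (knockout) fragments recovered from the values. Dyrk2 measured 11.5 FPKM (fragments relative to exon length and library total) in the wild-type and 1.93 FPKM in the knockout library. Pituitary identity was present in both: Pitx1, a regulator of the oral ectoderm and pouch, measured 250.4 and 227 FPKM, while Pou1f1, a factor of later hormone cells, was listed at 0 in both. Embryos of both sexes appear to be mixed in different proportions, although the sources used here do not give their sex. Xist, the transcript of the inactive X chromosome, measured 75 and 14.8 FPKM and the Y-linked gene Ddx3y 5.83 and 14.95 FPKM. Genotype and sex ratio therefore cannot be told apart. In whole tissue, fewer cells of a type and less RNA per cell cannot be told apart either.

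The 10 genes ranged from 0.05 to 57.5 FPKM in the wild-type library, and Msx1 held most of their RNA. It accounted for 85.4% of their summed FPKM in the wild-type and 81.2% in the knockout library, where the sums were 67.4 and 59.4 FPKM. A middle group of Dlx1, Dlx2, Dlx3, Dlx5, Prrx1 and Prrx2 lay between 0.83 and 2.85 FPKM in the wild-type library and between 1.21 and 3.19 FPKM in the knockout library. Dlx4, Dlx6 and Msx2 were at 0.14, 0.08 and 0.05 FPKM in the wild-type library and at 0.14, 0.23 and 0.17 FPKM in the knockout library. The exon lengths behind these values equal those of the GENCODE M21 annotation for all 10 genes.

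**Figure D1:**
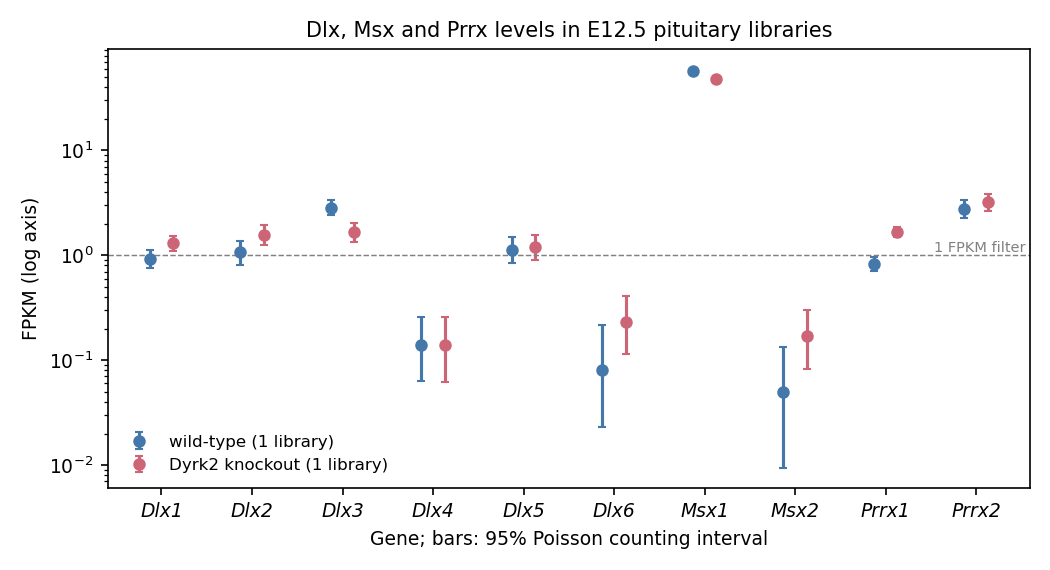
FPKM (log axis) of each of the 10 genes in the wild-type (blue) and Dyrk2 knockout (red) library, with 95% Poisson counting intervals as bars and the filter of 1 FPKM as a dashed line. Msx1 stands far above the rest at 57.5 and 48.3 FPKM, 6 genes lie near 1 to 3 FPKM, and Dlx4, Dlx6 and Msx2 lie below 0.3 FPKM.

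In order of level per exon length, the wild-type library ran Msx1, Dlx3, Prrx2, Dlx5, Dlx2, Dlx1, Prrx1, Dlx4, Dlx6 and Msx2. Counting intervals of the ratio between neighbours in this order excluded equality only at the steps from Msx1 to Dlx3, from Prrx2 to Dlx5 and from Prrx1 to Dlx4. The knockout library ran Msx1, Prrx2, Prrx1, Dlx3, Dlx2, Dlx1, Dlx5, Dlx6, Msx2 and Dlx4, with clear steps from Msx1 to Prrx2, from Prrx2 to Prrx1 and from Dlx5 to Dlx6. Prrx1 went from place 7 to place 3 and Dlx3 from place 2 to place 4, among neighbours whose levels in part do not differ beyond counting error.

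Between the libraries, 7 of the 10 genes could be compared after genes under 1 FPKM in both libraries were set aside. Of these, Prrx1 alone was higher in the knockout library by 1.5-fold or more and Dlx3 alone lower by as much (1 gene each way), with 0.5 FPKM added to both values. Of all 14000 genes compared, 2.07% were that much higher and 4.57% that much lower. No member reached 2-fold either way by this measure, against 0.857% of all genes higher and 1.89% lower. The counting interval of the plain ratio lay above 1 for Dlx1, Dlx2 and Prrx1 and below 1 for Dlx3 and Msx1, where 17.7% and 22.3% of all genes did so. Prrx1 and Dlx1 passed the filter only through the knockout library, so their passing is itself tied to the direction of their difference. Dlx4, Dlx6 and Msx2 did not pass, and their intervals all included 1.

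**Figure D2:**
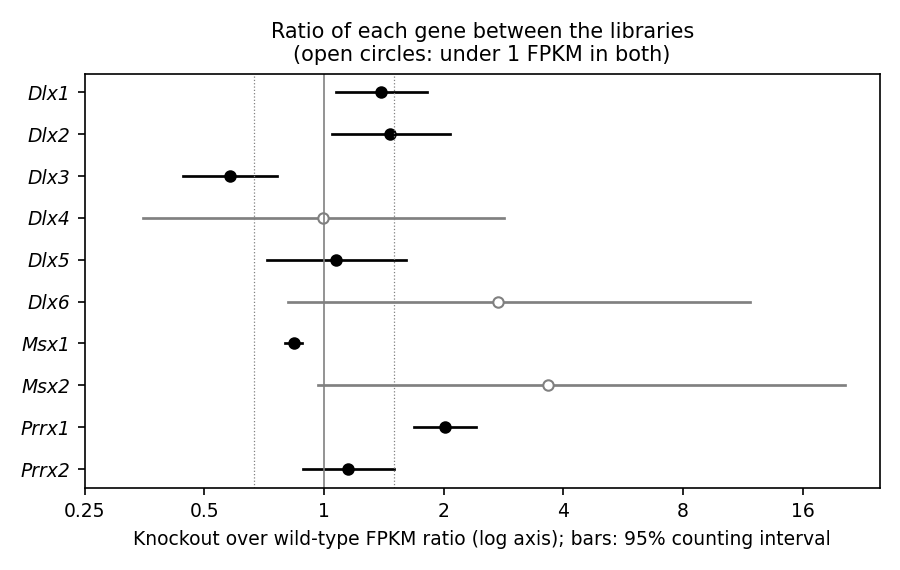
Ratio of knockout to wild-type FPKM for each of the 10 genes (log axis), with 95% counting intervals as bars, a solid line at 1 and dotted lines at 1.5-fold either way. Prrx1 lies to the right at 2.01 and Dlx3 to the left at 0.582, Msx1 is slightly left of 1 with a narrow bar, and the open circles of Dlx4, Dlx6 and Msx2 have wide bars that cross 1.

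Msx1 (ENSMUSG00000048450, chromosome 5 from 37820485 to 37824583, minus strand, GRCm38) encodes a repressor needed for the palate and the teeth. It measured 57.5 FPKM (55.6 to 59.4) in the wild-type and 48.3 FPKM (46.6 to 50.03) in the knockout library, from 3570 and 3007 fragments. The counting intervals did not overlap, and the knockout level was 1.19-fold lower (1.13 to 1.25). This is a small difference in size, yet 476 of the 500 genes nearest in mean FPKM had a higher log2 ratio. Msx1 exceeded 97.0% of protein-coding genes in the wild-type and 95.9% in the knockout library.

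Msx2 (ENSMUSG00000021469, chromosome 13 from 53466884 to 53473074, minus strand), the close relative that acts in skull and skin, was barely detected. It gave 3 fragments in the wild-type and 11 in the knockout library, a ratio of 3.65 with an interval of 0.965 to 20.4. Per exon length, Msx1 was 1260-fold (431 to 6112) above Msx2 in the wild-type and 289-fold (162 to 580.4) in the knockout library. Msx3, the third Msx gene, which acts in the dorsal neural tube, was listed at 0 in both.

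Dlx1 (ENSMUSG00000041911, chromosome 2 from 71528113 to 71533981, plus strand) and Dlx2 (ENSMUSG00000023391, 71543408 to 71546754, minus strand), whose products drive inhibitory neurons and upper jaw development, lie 9.43 kb apart. Dlx1 measured 0.93 FPKM (0.761 to 1.13) and 1.3 FPKM (1.09 to 1.53), from 101 and 141 fragments, a ratio of 1.39 (1.07 to 1.81). Dlx2 measured 1.07 FPKM (0.815 to 1.37) and 1.57 FPKM (1.26 to 1.93), from 61 and 90 fragments, a ratio of 1.47 (1.05 to 2.07). Both were thus slightly higher in the knockout library, each with a lower limit close to 1 and with intervals of the levels that overlap. The pair was near equal per exon length, with Dlx1 at 0.876 of Dlx2 (0.631 to 1.22) in the wild-type and 0.829 (0.632 to 1.09) in the knockout library. Dlx1as, transcribed antisense to Dlx1, gave 7 and 6 fragments and shares 6.21% of the exon bases of Dlx1. The sources used here do not say how the counting treated strand. Metap1d, a peptidase gene 2.92 kb from Dlx1 that encodes no homeodomain, went the other way, at 5.94 and 4.38 FPKM.

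Dlx3 (ENSMUSG00000001510, chromosome 11 from 95120119 to 95125296, plus strand), a gene of surface ectoderm, placenta, hair and enamel, was the Dlx gene with the highest level in the wild-type library. It measured 2.85 FPKM (2.41 to 3.35) there and 1.66 FPKM (1.33 to 2.05) in the knockout library, from 149 and 87 fragments. The intervals did not overlap, and the knockout level was 1.72-fold lower (1.31 to 2.27). Adding 0.5 FPKM brought the difference to 1.55-fold, and adding 2 FPKM to a log2 ratio of -0.41, under 1.5-fold. Of the 500 genes nearest in mean FPKM, 466 had a higher log2 ratio. Its partner Dlx4 (ENSMUSG00000020871, 95140447 to 95146263, minus strand), 15.2 kb away, gave 9 fragments in each library. Dlx3 stood 20.8-fold (10.6 to 46.3) above Dlx4 in the wild-type and 12.1-fold (6.10 to 27.4) in the knockout library. Dlx4os, an antisense transcript that shares 2.42% of the exon bases of Dlx4, gave 16 and 5 fragments, 3.21-fold lower (1.12 to 11.2) in the knockout library. Itga3, an integrin gene 43.3 kb from Dlx3, was level at 16.4 and 16.6 FPKM.

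Dlx5 (ENSMUSG00000029755, chromosome 6 from 6877805 to 6882085, minus strand) and Dlx6 (ENSMUSG00000029754, 6863334 to 6868568, plus strand), whose products specify the lower jaw, lie 9.24 kb apart. Dlx5 measured 1.12 FPKM (0.837 to 1.48) and 1.21 FPKM (0.910 to 1.57), from 51 and 55 fragments. Its ratio of 1.07 has an interval of 0.721 to 1.61, which spans levels from 1.39-fold lower to 1.61-fold higher. Dlx6 gave 4 and 11 fragments, a ratio of 2.74 (0.812 to 11.8). Unlike Dlx1 and Dlx2, this pair was unequal: Dlx5 was 13.4-fold (4.92 to 51.0) above Dlx6 in the wild-type and 5.25-fold (2.72 to 11.1) in the knockout library. Dlx6os1, a long non-coding RNA that runs antisense across Dlx6 and shares none of its exon bases, gave 31 and 23 fragments, at 0.30 and 0.22 FPKM. Dlx6os2, which shares 4.38% of the exon bases of Dlx6, was listed at 0 in both.

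Prrx1 (ENSMUSG00000026586, chromosome 1 from 163245119 to 163313710, minus strand), a regulator of limb and jaw mesenchyme, measured 0.83 FPKM (0.714 to 0.958) in the wild-type and 1.67 FPKM (1.51 to 1.85) in the knockout library. With 11066 exon bases it is by far the longest of the 10, so these low levels rest on 184 and 372 fragments. The intervals did not overlap, and the knockout level was 2.01-fold higher (1.68 to 2.42). Of the 500 genes nearest in mean FPKM, 481 had a lower log2 ratio. Gm20471, annotated antisense within Prrx1 with none of its exon bases shared, was listed at 0 in both. Adding 0.5 FPKM brought the difference to 1.63-fold, and adding 2 FPKM to a log2 ratio of 0.37, under 1.5-fold.

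Prrx2 (ENSMUSG00000039476, chromosome 2 from 30834972 to 30881251, plus strand), which shares many roles of Prrx1, measured 2.77 FPKM (2.28 to 3.34) and 3.19 FPKM (2.66 to 3.8). Its ratio was 1.15 (0.884 to 1.503), and the intervals of the levels overlap widely. Prrx2 was 3.34-fold (2.61 to 4.26) above Prrx1 per exon length in the wild-type library and 1.91-fold (1.55 to 2.35) in the knockout library. Of its neighbours, Ptges, which encodes a prostaglandin synthase 8.22 kb away, was lower at 2.5 and 1.28 FPKM. Ntmt1, Asb6 and 1700001O22Rik, at 15.0 and 15.1, 5.93 and 5.44, and 0.98 and 1.16 FPKM, had ratios whose intervals include 1.

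**Figure D3:**
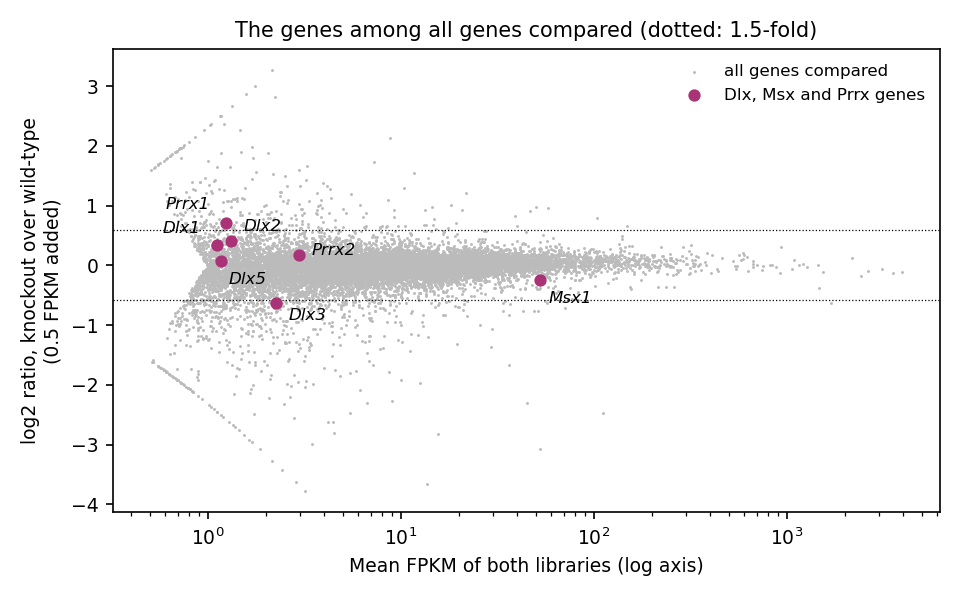
Log2 ratio of knockout over wild-type with 0.5 FPKM added, against mean FPKM (log axis), for all 14000 genes compared (grey) and the 7 Dlx, Msx and Prrx genes above the filter (purple), with dotted lines at 1.5-fold. Prrx1 at 0.71 and Dlx3 at -0.63 lie just outside the lines among widely scattered weak genes, and Msx1 at -0.25 lies at the lower edge of a narrow cloud.

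Signals known to act upstream of these genes were examined from lists of endothelin and BMP genes. Their part in the differences of Dlx, Msx and Prrx genes was not tested. In the list counts from here on, a gene that reaches 1 FPKM in 1 library only is counted through the library where it is higher, which ties its passing to its direction. The lists were also chosen with earlier results of these data known, so their counts and medians are descriptions only. Counts by 1.5-fold stand beside shares of all genes compared of 2.07% higher and 4.57% lower. In the endothelin and jaw patterning list, 15 of 22 genes passed the filter, 2 were at least 1.5-fold higher and 1 lower by as much, with a median log2 ratio of -0.15 against -0.02 for all genes compared. Ednra, the receptor through which endothelin turns on Dlx5 and Dlx6 in the lower jaw, measured 8.26 and 4.43 FPKM, 1.86-fold lower (1.67 to 2.09). Its ligand gene Edn1 was at 0.75 and 0.81 FPKM with an interval of the ratio that includes 1. The jaw regulators Hand1, Hand2 and Gbx2 were listed at 0 in both libraries, where 3 fragments would equal 0.0749, 0.0637 and 0.0687 FPKM in the wild-type library. Barx1, a homeobox gene of jaw and stomach mesenchyme, measured 0.39 and 3.02 FPKM, 7.70-fold higher (4.09 to 16.01).

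Of the 17 BMP ligands, receptors, transducers and antagonists, 16 passed, 3 were at least 1.5-fold higher and 2 lower by as much. The same shares of all genes compared apply, 2.07% and 4.57%. The list median was -0.03. Bmp4, a ligand that induces Msx1 in the tooth and palate, measured 6.50 and 10.5 FPKM, 1.62-fold higher (1.40 to 1.88). The other ligand genes went both ways: Bmp7 measured 3.48 and 5.69 FPKM, while Bmp2 measured 8.64 and 6.84 FPKM, 1.26-fold lower (1.12 to 1.43). Bmp5 at 1.34 and 1.09 FPKM and Bmp6 at 1.48 and 1.22 FPKM had intervals of the ratio that include 1. Among antagonist genes, Chrd measured 1.79 and 0.94 FPKM, 1.91-fold lower (1.52 to 2.41), and Grem1 was 2.92-fold lower (2.20 to 3.91) at 2.35 and 0.80 FPKM, whereas Nog was 2.26-fold higher (1.49 to 3.49) at 1 and 2.26 FPKM. Chrd and Grem1 passed the filter only through the wild-type library. All 9 BMP response genes passed and all 9 lay within 1.5-fold, with a median of 0.19. Among them 7 had a log2 ratio above 0 and 2 below. Id1 and Id3, direct targets that block helix-loop-helix factors, were 1.22-fold (1.15 to 1.29) and 1.14-fold (1.10 to 1.18) higher. The 2 below 0 were Smad7, 1.17-fold lower (1.04 to 1.32), and Smad6, with an interval of the ratio that includes 1.

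Of 23 other homeobox genes of the head, 16 passed, with a median of 0.52. Of these, 8 were higher without Dyrk2 by 1.5-fold or more and 1 was lower by as much. The shares of all genes compared were 2.07% and 4.57%. This list was chosen with earlier results of these data known, so its counts are a description only. Of the 8 higher genes, 4 (Alx1, Alx4, Barx1 and Lhx6) passed only through the knockout library, the lower gene only through the wild-type library, and with a filter of 5 FPKM the median turned to -0.0092. Whether these homeobox genes differ from the Dlx, Msx and Prrx genes in this respect was not tested. Six2, a factor of head mesenchyme and kidney progenitors, measured 115 and 182 FPKM, and Irx3, a patterning gene, was 3.09-fold higher (2.35 to 4.10) at 1.26 and 3.91 FPKM. Alx1, at 0.18 and 4.29 FPKM, had the highest ratio of the list. Shox2, a limb and palate gene and the member that was lower, measured 1.96 and 0.54 FPKM.

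**Figure D4:**
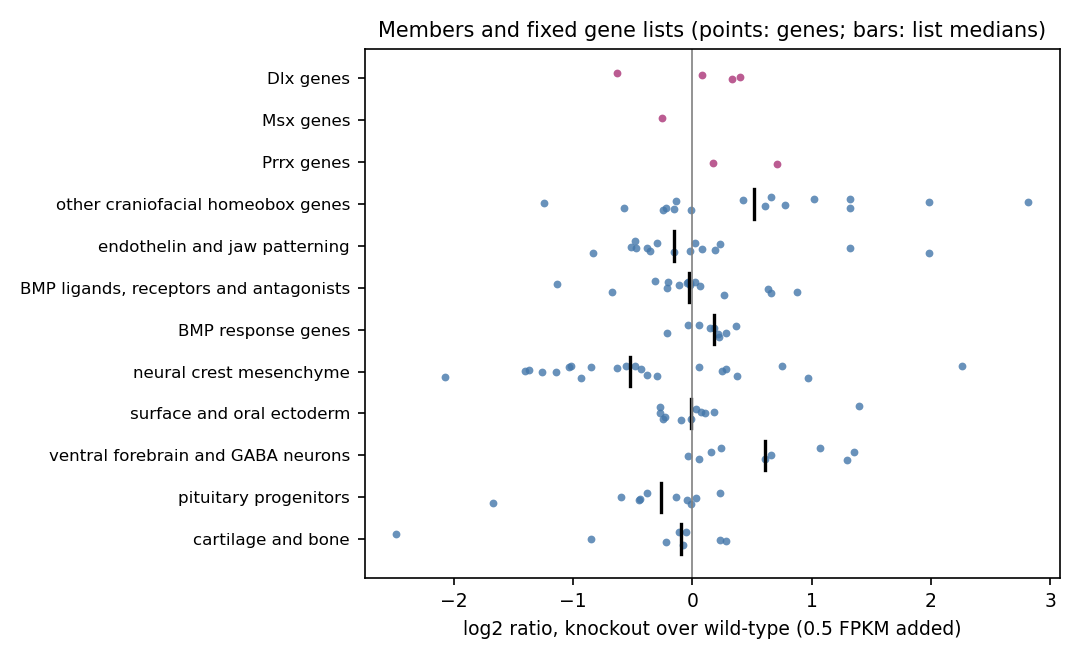
Log2 ratio of knockout over wild-type with 0.5 FPKM added, for each gene above the filter in the Dlx, Msx and Prrx families (purple) and in 9 other lists (blue), with black bars at the list medians. The family genes lie between -0.63 and 0.71, the other craniofacial homeobox genes have a median of 0.52, and the neural crest mesenchyme list has a median of -0.52 with genes on both sides.

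Markers of tissues that express these genes also differed between the libraries, and their part in the differences of Dlx, Msx and Prrx genes was not tested. All 22 neural crest mesenchyme markers passed, 10 were lower by 1.5-fold or more and 3 higher by as much. Across all genes compared, 4.57% were that much lower and 2.07% that much higher. The list median was -0.52, with summed levels of 365 and 301 FPKM. The list was mixed, with 7 genes above 0 in log2 ratio and 15 below. The collagen genes Col1a1, Col6a1 and Col3a1 measured 42.7 and 16.2, 11.5 and 4.06, and 91.7 and 62.1 FPKM. Tcf21, which passed only through the wild-type library, measured 1.61 and 0 FPKM. Osr2, which passed only through the knockout library, measured 0.18 and 2.77 FPKM. Fn1, the fibronectin gene and also among the 7 above 0, measured 33.6 and 66.5 FPKM. In the cartilage and bone list, where Dlx5 and Msx2 act in bone-forming cells, 8 of 13 passed. Of these, 2 were at least 1.5-fold lower, both passing only through the wild-type library, and none higher by that much. The summed levels of that list, 168 and 144 FPKM, rest mainly on the collagen gene Col2a1, at 141 and 121 FPKM. The 2 lower genes were Matn4, at 3.3 and 0.18 FPKM, and Sp7. Sp7, a bone factor, was 2.86-fold lower (1.80 to 4.65) at 1.09 and 0.38 FPKM.

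Surface and oral ectoderm markers, beside which Dlx3 is read, were close to level. Of 17 listed, 11 passed, 1 was at least 1.5-fold higher and none lower by that much, against 2.07% and 4.57% of all genes compared. Their summed levels were 748 and 707 FPKM. That sum rests largely on genes common to many epithelia, such as Epcam, an adhesion gene, at 194.5 and 193 FPKM. Genes of stratified surface epithelium were weak, with Krt14, a basal keratin gene, at 0.45 and 0.23 FPKM and Trp63, the regulator of that lineage, at 0.02 and 0.32 FPKM, from 3 and 54 fragments. Weak keratin genes of the list went both ways, with Krt15 at 0.28 and 1.55 FPKM and Krt17 at 0.19 and 0 FPKM. The part of these genes in the difference of Dlx3 was not tested.

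Ventral forebrain and GABA neuron markers, beside which Dlx1, Dlx2, Dlx5 and Dlx6 are read, were mostly weak. Of 17 listed, 9 passed, 5 of them higher without Dyrk2 by 1.5-fold or more and none lower by that much. Among all genes compared, 2.07% were that much higher and 4.57% lower. Summed levels of the list, 81.9 and 93.9 FPKM, rest mainly on Six3 and Nkx2-1. All 5 (Sp8, Vax1, Npy, Sst and Lhx6) passed only through the knockout library, the interval of the Sst ratio (0.890 to 4.77) includes 1, and the list median of 0.61 was 0.17 without a filter and 0.057 with one of 5 FPKM. The defining genes of GABA synthesis, Gad1 at 0.26 and 0.18 FPKM and Gad2 at 0.20 and 0.29 FPKM, were near 0 with intervals of the ratio that include 1, while the GABA transporter gene Slc32a1 measured 0.32 and 0.78 FPKM. Gsx2, a forebrain regulator upstream of Dlx2, was listed at 0 in both. In the list of olfactory and nasal epithelium, another site of Dlx5, 5 of 8 passed, 2 were at least 1.5-fold higher and none lower by that much, with summed levels of 4.76 and 7.94 FPKM. Sp8, a factor of the nasal and forebrain epithelium found in both lists, measured 0.16 and 1.12 FPKM.

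Of the remaining lists, pituitary progenitor genes (10 of 12 passed) had a median of -0.26, with Cga, a hormone subunit gene, at 55.4 and 17.0 FPKM. Endothelial genes (5 of 5) had a median of 0.17, erythroid genes (5 of 5) -0.38 and macrophage genes (2 of 4) -0.17. The median of Schwann cell precursor genes (3 of 5) was -0.12. Without a filter and with one of 5 FPKM it was 0.060, in both cases the value of Erbb3. The filter of 5 FPKM leaves only that gene of the list.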

How the data were processed

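PolyA-selected, stranded libraries of E12.5 pituitary RNA were made per the labels' protocols, 1 for each genotype, and samples were grouped by the genotype label. The authors deposited FPKM to 2 decimals with summed exon lengths, per the file headers. The submitters' processing notes name the build GRCm38, the trimmer cutadapt 1.9.1 and the aligner HISAT2 2.0.1. The sources used here do not give the fragment counter, its strand setting, the annotation release or filters. FPKM share fragments among all genes, so an abundant transcript can shift the others.

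Identifiers were matched to GENCODE M21 (GRCm38), 55141 of 55401 with a symbol. Where identifiers share a symbol, the one with the higher mean FPKM was used. FPKM times exon length moves in whole fragments: of values of at most 100 fragments where rounding allows an error under 0.05 fragment, all 1512 (wild-type) and 1372 (knockout) came within 0.1 of a whole number. The fragments gave exact Poisson intervals of FPKM and exact Clopper-Pearson intervals of ratios, for counting error only. PCR copies are not independent molecules. Counts by fold use the log2 ratio with 0.5 FPKM added, which understates differences of weak genes. Fold values are plain ratios. The floor for a gene at 0 is 3 fragments. No test between genotypes is possible with 1 library each.

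The members and all 17 gene lists were chosen with earlier results of these data known. From each list were named up to 4 genes at least 1.5-fold apart and the 2 most abundant, though not every gene so chosen is printed. Genes within 50 kb of a member were named where they reach 1 FPKM or overlap a member on the other strand. Bmp2, Bmp5, Bmp6, Bmp7, Smad6, Smad7, Alx4, Lhx6, Edn1, Hand1, Hand2, Gbx2, Shox2, Krt14, Krt17, Trp63, Gad1, Gad2, Slc32a1, Gsx2, Pou1f1, Msx3, Xist and Ddx3y were singled out after their values were seen. Alternatives were other pseudocounts, filters and scalings. Calculations used Python 3.11.15 with numpy 2.4.6, pandas 2.3.3 and scipy 1.17.1, and were tested on simulated data.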

Additional observations from a re-analysis of the deposited data

How the results depend on the processing

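No paired analysis was possible because each genotype has 1 library. For single genes, 49 of 50 log2 ratios under other pseudocounts and scalings were classed as the same as the main result. The exception was Prrx1, which moved from 0.71 to 0.37 with 2 FPKM added. Dlx3, at -0.41 with 2 FPKM added, stayed within its interval and fell under 1.5-fold. The counts of 1 higher and 1 lower gene each became 0 with 2 FPKM added and 0 with a filter of 5 FPKM, which leaves only Msx1. That filter turned the median of the Dlx, Msx and Prrx genes from 0.17 to -0.25. It moved the medians of the endothelin and jaw patterning list to -0.085, of other craniofacial homeobox genes to -0.0092, of surface and oral ectoderm to -0.23 and of Schwann cell precursors to 0.060. The filter leaves fewer genes in these lists, and only Erbb3 among the Schwann cell precursors. Without a filter the endothelin and jaw patterning median was -0.016, that of pituitary progenitors -0.14 and that of Schwann cell precursors 0.060. With 2 FPKM added the other craniofacial homeobox median was 0.30. The surface and oral ectoderm median of -0.0099 turned to 0.012 with trimmed mean scaling and to 0.0033 with upper quartile scaling. The 3 scalings multiplied the knockout library by 0.997 to 1.02. Depth limits the weakest genes most: differences of Dlx4, Dlx6 and Msx2 rest on 3 to 11 fragments a library.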
